A study of Mus musculus with 8 samples.

Results

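Serpins are a family of proteins that share a fold, and most of them inhibit proteases. The 7 serpin genes described here were Serpinb1a, picked for its rise in the soleus muscle of mice with a K562E mutation of dynamin 2, and 6 other serpins of muscle tissue: Serpinb6a, Serpinb9, Serpina3n, Serpine2, Serpinf1 and Serping1. They are 7 of the 61 serpin genes in the count table, which holds 22880 genes in all. All 7 were picked by symbol, and Serpinb1a was picked on the comparison reported below, so its values are given as a description without a test.

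The RNA came from the soleus, a hind limb muscle rich in slow fibres, of 8 male mice aged 2 months on a C57BL/6 background (C57bl/6 J in the study's methods). The 4 control mice were Dnm2 +/+, and the 4 Dnm2 +/K562E mice carried 1 wild-type allele and 1 allele with the point mutation. The mutant allele was made by homologous recombination at the Dnm2 locus itself, so it is present in all cells of the body and not only in muscle, and every library is 1 mouse. Dnm2 encodes dynamin 2, a GTPase that cuts vesicles from membranes, and the study asked how the mutation changes transcripts of a muscle with features of a myopathy.

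Between 33407430 and 48832814 counts were assigned to genes per mouse. Each level below is a normalized CPM, that is a count scaled by library size and by a TMM factor, which correct for a shift in RNA makeup. These factors lay between 0.915 and 0.959 in the controls and between 1.04 and 1.10 in the Dnm2 +/K562E mice. A single count was worth 0.0224 to 0.0298 CPM, and mice of 1 genotype differed beyond counting noise (chi-square per degree of freedom between 13.0 and 57.8 over genes). The slow fibre genes Myh7, Tnnt1, Tnni1 and Myl2 were abundant in every mouse, with Myh7 at 6014 ± 263 CPM (SD, n = 4) in controls and 4193 ± 391 CPM in mutant mice, and Tnni1 at 1130 ± 149.9 and 1015 ± 132 CPM. Of the 6 muscle genes listed, which also include Acta1 and Ckm of all skeletal fibres, Myl2 and Ckm were called lower, and Myl2 lost its call when counts were scaled by library size alone. Total Dnm2 RNA, both alleles together, was 66.3 ± 4.74 CPM (SD, n = 4) in controls and 73.4 ± 2.43 CPM in Dnm2 +/K562E mice. Its log2 fold change of 0.15 (adjusted p = 0.0910, edgeR quasi-likelihood test) missed the threshold, while library size alone gave 0.36 (adjusted p = 0.00271), past the p threshold but under the fold threshold. A point mutation need not alter it, so Dnm2 levels do not check the labels.

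An inhibitory serpin offers a protease an exposed stretch near its C-terminal end, the reactive centre loop, as bait. The protease cuts the loop, the loop then folds into the body of the serpin, and the protease is dragged along and trapped. The members with b in their symbol belong to the clade that stays largely inside cells, and the others are secreted. Serpins of muscle tissue can thus act in fibres, in immune and connective tissue cells, at the synapse and in the matrix between fibres.

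The loops show how far the members differ where they meet their targets. For each member, the 90 coding bases that end with the codons of a conserved proline and phenylalanine behind the loop are shown 5′ to 3′ on the coding strand of GRCm38, with those last 2 codons in capitals. Serpinb1a has the window at chr13:32842884-32842973 in exon 7 of 7, Serpinb6a at chr13:33918107-33918196 in exon 8 of 8, and Serpinb9 at chr13:33015693-33015782 in exon 7 of 7. Serpina3n has it at chr12:104413448-104413537 in exon 5 of 5, Serpinf1 at chr11:75410209-75410298 in exon 8 of 8, and Serping1 at chr2:84765646-84765735 in exon 8 of 8. The Serpine2 window is split by an intron and lies within chr1:79796854-79799501. Only Serpinb9 and Serpina3n are on the plus strand.
Serpinb1a: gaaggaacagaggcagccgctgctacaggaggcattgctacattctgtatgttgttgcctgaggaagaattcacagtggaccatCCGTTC
Serpinb6a: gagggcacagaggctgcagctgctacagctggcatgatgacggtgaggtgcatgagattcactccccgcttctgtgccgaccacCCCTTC
Serpinb9: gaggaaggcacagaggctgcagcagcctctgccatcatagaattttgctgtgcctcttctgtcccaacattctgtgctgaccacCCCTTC
Serpina3n: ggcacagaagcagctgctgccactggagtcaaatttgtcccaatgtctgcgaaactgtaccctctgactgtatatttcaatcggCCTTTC
Serpine2: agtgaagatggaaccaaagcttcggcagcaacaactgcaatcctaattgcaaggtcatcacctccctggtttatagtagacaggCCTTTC
Serpinf1: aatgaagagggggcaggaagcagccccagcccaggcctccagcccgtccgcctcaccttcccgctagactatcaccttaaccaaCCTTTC
Serping1: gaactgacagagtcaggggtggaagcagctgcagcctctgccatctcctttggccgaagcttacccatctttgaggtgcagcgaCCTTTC
The last 2 codons differ between members only in synonymous positions, and the cut site of the inhibitory members lies further into the window. In gapped alignments of the 21 pairs of members, between 53.5% and 70.8% of the columns held the same base.

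A gene was called when its log2 fold change was beyond 0.58 in size, upward for higher and downward for lower, and its p, from edgeR's quasi-likelihood test and adjusted over all 14001 tested genes, was under 0.05. All 7 serpins passed the filter on low counts. Of these, 4 were called higher in Dnm2 +/K562E mice, Serpinb1a, Serpinb6a, Serpinf1 and Serping1, and 1, Serpine2, was called lower. For Serpinb1a the call is a label by these thresholds and not a test. Serpinb9 and Serpina3n were not called. Among all tested genes 12.9% were called higher and 7.85% lower. Because Serpinb1a was picked for its rise, only the other 6 bear on the comparison, and 3 of them were called higher. The members were chosen with earlier results of these data known, so their share of calls is a description and not a test. Scaling by library size alone moved the median over all tested genes from 0.01 to 0.22 on the log2 scale and turned the 1806 higher and 1099 lower calls into 2865 and 564.

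In 4 members every Dnm2 +/K562E mouse lay above every control, in 1 every mutant mouse lay below, and in 2 the groups overlapped. Among the 6 members other than Serpinb1a, which was picked for its rise, 3 had every mutant mouse above. Of all tested genes, 20.6% had all mutant mice above all controls and 20.5% had all of them below. The 2 members that overlapped were Serpinb9 and Serpina3n. RNA came from whole muscle. For every serpin below, a change in the number of cells of a type and in RNA per cell cannot thus be told apart.

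**Figure D1:**
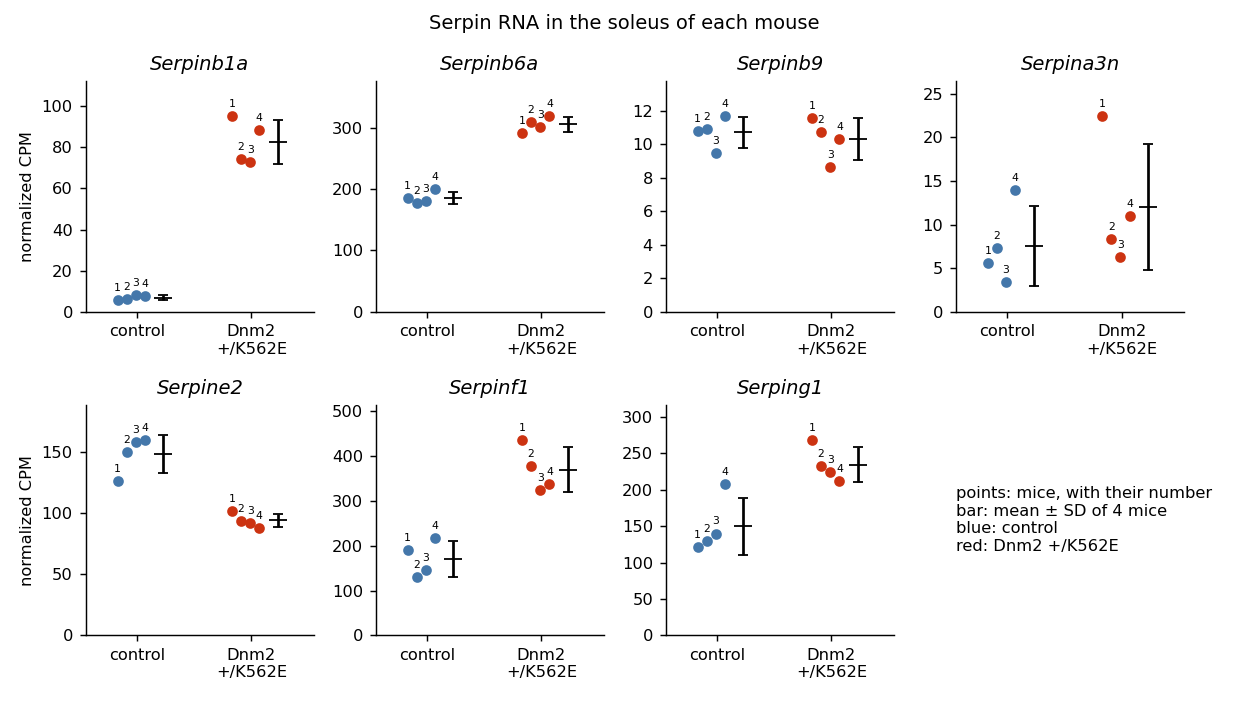
Normalized CPM (y axis, from 0) of each serpin in the 4 control mice (blue) and the 4 Dnm2 +/K562E mice (red), with the mouse number at each point and the mean ± SD beside it. Serpinb1a is below 8.1 CPM in every control and above 72 CPM in every mutant mouse, Serpine2 is lower in all mutant mice, and the groups overlap for Serpinb9 and Serpina3n.

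Serpinb1a (ENSMUSG00000044734, chr13:32842092-32851185 of GRCm38, minus strand) encodes an intracellular inhibitor of the neutrophil serine proteases elastase, proteinase 3 and cathepsin G. Its levels were 5.66, 6.21, 8.02 and 7.66 CPM in control mice 1 to 4 and 95.2, 74.3, 73.0 and 88.3 CPM in Dnm2 +/K562E mice 1 to 4. The lowest mutant mouse was thus far above the highest control, and the 4 mice of each genotype lay close together. The means were 6.89 ± 1.13 CPM (SD, n = 4) and 82.7 ± 10.8 CPM (SD, n = 4), a 12.01-fold ratio. The fitted log2 fold change was 3.58 with a standard error of 0.13. Only 30 tested genes, 0.214% of all, had a larger log2 fold change. These values rest on 190 to 358 counts per control and 3060 to 3505 counts per mutant mouse.

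Serpinb1a has close copies next to it on chromosome 13, and 10.2% of its 31-base stretches recur in other genes, chiefly Serpinb1b and Serpinb1c. Its copies had little RNA in either genotype. Serpinb1c (chr13:32881434-32898211) was at 1.82, 1.40, 1.81 and 2.00 CPM in the controls and 0.706, 0.349, 0.429 and 0.838 CPM in the mutant mice, so every mutant mouse was below every control. Its log2 fold change was -1.61 ± 0.31 (SE, adjusted p = 0.00166, edgeR). Serpinb1b (chr13:33078575-33094380) had 0 counts in every control and 1, 2, 1 and 1 counts in the mutant mice, too few for a test. Serpinb1a made up 75.7% to 81.6% of the counts of the 3 genes in the controls and 99.0% to 99.5% in the mutant mice.

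The windows of the copies, Serpinb1b at chr13:33093779-33093868 on the plus strand and Serpinb1c at chr13:32881899-32881988 on the minus strand, are shown because reads over them can tell the 3 genes apart.
Serpinb1b: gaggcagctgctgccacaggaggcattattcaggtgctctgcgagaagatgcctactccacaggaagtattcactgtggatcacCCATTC
Serpinb1c: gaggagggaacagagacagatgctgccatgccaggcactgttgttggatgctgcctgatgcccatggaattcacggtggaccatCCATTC
In gapped alignments with the Serpinb1a window above, 64.0% of the columns held the same base for Serpinb1b and 68.7% for Serpinb1c, both within the range between members.

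RNA of the proteases that Serpinb1a is best known to inhibit was hardly detected, and their proteins were not measured. Elane had at most 1 count in any mouse, Prtn3 at most 6 and Ctsg at most 4. The neutrophil marker Ly6g had 0 counts in all 8 mice, and the 8 neutrophil markers together summed to between 0.913 and 2.47 CPM in controls and between 1.42 and 6.68 CPM in mutant mice. Only 2 of these 8 markers, Csf3r and Retnlg, passed the filter and neither was called. Csf3r was at 0.847 ± 0.348 and 1.74 ± 0.971 CPM (log2 fold change 1.04, adjusted p = 0.0665, edgeR) and was called higher with library size alone. S100a8, which was not tested, was between 0.0224 and 0.119 CPM in controls and between 0.215 and 0.788 CPM in mutant mice, without overlap. Of all tested genes, 20.6% had every mutant mouse above every control. For S100a9, Retnlg, Cxcr2, Csf3r, Mpo and Elane the groups overlapped. Dnm2 +/K562E mouse 1 had both the highest sum and the highest Serpinb1a, and mutant mouse 2, with the lowest sum of the mutant mice, had 74.3 CPM of Serpinb1a. The part of neutrophil RNA in the Serpinb1a difference was not tested.

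By the root mean square difference of log2 CPM over the 8 mice, each gene centred on its control mean, the 5 tested genes nearest to Serpinb1a were Myh3, Shisal1, Guca2a, Nppb and Nrcam, at distances between 0.21 and 0.31. Myh3 encodes embryonic myosin heavy chain, which regenerating fibres make. It was at 22.9, 20.1, 26.6 and 22.7 CPM in controls and 403, 302, 272 and 344 CPM in Dnm2 +/K562E mice, with mouse 1 the highest mutant mouse as for Serpinb1a. Its log2 fold change was 3.84. Nrcam, a neuronal cell adhesion molecule, went from 1.37 ± 0.30 to 13.5 ± 3.53 CPM (SD, n = 4), and Shisal1 from 0.368 ± 0.094 to 4.88 ± 0.692 CPM. Guca2a and Nppb, which encode the peptide guanylin and a natriuretic peptide, had 0 counts in all controls and 21 to 30 and 14 to 21 counts in the mutant mice, so their likeness depends on the prior count of 2 in the log2 values. Likeness over 8 mice in 2 groups rests mostly on the size of the group difference.

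Of the 7 genes listed as embryonic or denervation genes, 6 were called higher and none lower, against 12.9% and 7.85% of all tested genes. Their median log2 fold change was 2.04 against 0.01 over all tested genes. The list was chosen with earlier results of these data known, so its count is a description and not a test. The 6 called genes were Myh3, Chrna1, Chrng, Ncam1, Myog and Runx1. Myog, which drives myoblast differentiation, went from 6.50 ± 1.46 to 55.8 ± 10.1 CPM (log2 fold change 3.10), close to the size of the Serpinb1a difference. Myh8, the perinatal myosin, was at 22.7 ± 2.94 and 24.1 ± 3.51 CPM and was not called.

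Serpinb6a (ENSMUSG00000060147, chr13:33917918-34002794, minus strand) encodes another intracellular inhibitor, which can block cathepsin G and trypsin-like proteases. Its levels were 185, 178, 181 and 200.3 CPM in the controls and 292, 310.4, 302 and 319 CPM in Dnm2 +/K562E mice. Every mutant mouse was above every control, and the spread within each genotype was the smallest of the 7 members at a biological coefficient of variation of 7.80%. The mean went from 186 ± 9.92 to 306 ± 11.7 CPM (SD, n = 4), with a log2 fold change of 0.72 ± 0.06 (SE, adjusted p = 6.11e-06, edgeR). Its 95% interval reached from 0.60 to 0.83.

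The Serpinb6a exons overlap those of Nqo2 over 762 bases and of Ripk1 over 241 bases, both on the other strand, and the use of strand in the counting is not stated. Nqo2 was at 29.6 ± 4.32 and 32.3 ± 1.68 CPM (log2 fold change 0.12, adjusted p = 0.342) and Ripk1 at 13.7 ± 1.15 and 16.1 ± 1.31 CPM (log2 fold change 0.23, adjusted p = 0.0578), and both lie far below Serpinb6a. In all, 29.0% of the 31-base stretches of Serpinb6a occur in another gene, the largest share among the 7.

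The RefSeq table lists 2 promoters of Serpinb6a. For GRCm38.p6 it held promoters of 13 tested serpins, but none of Serpinb1a or Serping1. Each window reached from 250 bases before to 50 after the start, and both strands were searched. In 1 of the 13, Serpinb6a, the STAT letters TTCNNNGAA and the MCAT letters CATTCC were found. The upstream promoter, chr13:34002745-34003044 on the minus strand, is shown with STAT matches at bases 174 to 182 and 271 to 279 and an MCAT match at bases 36 to 41 in capitals.
Serpinb6a promoter: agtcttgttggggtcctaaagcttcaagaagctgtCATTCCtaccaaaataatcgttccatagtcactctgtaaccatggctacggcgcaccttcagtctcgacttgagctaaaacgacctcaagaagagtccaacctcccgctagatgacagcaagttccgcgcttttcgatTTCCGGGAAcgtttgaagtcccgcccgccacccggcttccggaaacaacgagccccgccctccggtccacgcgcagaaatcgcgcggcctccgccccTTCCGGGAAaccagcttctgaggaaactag
Across all 32851 promoters of this length, 8.30% held the STAT letters and 14.7% the MCAT letters. The other Serpinb6a promoter had no match to either, nor to the AP-1 letters TGANTCA or the C/EBP letters TTGCNNAA, which occurred in 7.81% and 10.8% of all promoters. The AP-1 letters were found in 1 tested serpin, Serpinb8. None of the listed Serpinb9, Serpina3n, Serpine2 and Serpinf1 promoters held any of the 4 motifs. A match describes letters in a window and not a bound site.

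Serpinb9 (ENSMUSG00000045827, chr13:33003250-33017957, plus strand) encodes an inhibitor of granzyme B that protects cytotoxic lymphocytes and other cells from their own granules. It was at 10.8, 10.9, 9.47 and 11.7 CPM in controls and 11.6, 10.8, 8.63 and 10.4 CPM in Dnm2 +/K562E mice. The groups overlapped. The means were 10.7 ± 0.920 and 10.3 ± 1.25 CPM (SD, n = 4), and the log2 fold change was -0.05 with a 95% interval from -0.27 to 0.17 (adjusted p = 0.733, edgeR). Its target Gzmb had at most 4 counts in any mouse, and none of the 6 T and NK cell markers passed the filter.

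The serpins on chromosome 13 differed in response although they lie close together. Within 250000 bases of Serpinb1a the table counts Mylk4, Wrnip1, D930007J09Rik, Serpinb1c, Serpinb6b, Serpinb9, Serpinb9b and Serpinb1b. Mylk4, a kinase of the myosin light chain kinase family at chr13:32700834-32783954, was at 224, 130, 130 and 167 CPM in the controls and 19.7, 38.6, 31.4 and 24.5 CPM in the mutant mice. Its log2 fold change was -2.50 ± 0.23 (SE, adjusted p = 1.2e-05, edgeR), the opposite direction to its neighbour. Wrnip1 was at 12.1 ± 1.16 and 13.5 ± 1.08 CPM and was not called (log2 fold change 0.16, adjusted p = 0.210), and Serpinb6b was not called either (log2 fold change -0.55, adjusted p = 0.132).

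Serpina3n (ENSMUSG00000021091, chr12:104406729-104414329, plus strand) encodes a secreted serpin of the acute phase, which inhibits granzyme B and other serine proteases. It was the most variable member. Its levels were 5.60, 7.34, 3.36 and 14.0 CPM in controls and 22.4, 8.34, 6.23 and 10.97 CPM in Dnm2 +/K562E mice. Control mouse 4 was above 3 of the 4 mutant mice, and mutant mouse 1 stood highest. The means were 7.57 ± 4.58 and 11.99 ± 7.23 CPM (SD, n = 4) and the biological coefficient of variation was 43.2%, against a median of 11.6% over all tested genes. The log2 fold change of 0.67 had a 95% interval from -0.21 to 1.55 and missed the threshold (adjusted p = 0.254, edgeR). The value depended on single mice: without control 4 it was 1.14 (adjusted p = 0.0489), and without mutant mouse 1 it was 0.17. Part of the Serpina3n sequence, 21.6% of its 31-base stretches, is shared with other genes such as Serpina3f, Serpina3g and Serpina3c.

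The acute phase genes listed for comparison did not move as 1 group. Of 8 tested, 2 were called higher and none lower, against 12.9% and 7.85% of all tested genes. Their median log2 fold change was 0.31, against 0.01 over all tested genes. With library size alone 4 were called higher, with Stat3 and Socs3 added, against 2865 of all 14001 tested genes. Mt1 and Mt2, the genes called with TMM scaling, encode metallothioneins, small metal-binding proteins. Mt1 went from 38.6 ± 10.6 to 69.0 ± 10.2 CPM and Mt2 from 16.1 ± 3.74 to 50.8 ± 9.30 CPM. Stat3, the transcription factor of the interleukin 6 response, was at 84.5 ± 3.68 and 123 ± 5.56 CPM and passed the p threshold but not the fold threshold (log2 fold change 0.54, adjusted p = 3.59e-05, edgeR). The plasma proteins Lcn2, Hp and Orm1 had log2 fold changes of 0.14, -0.42 and -0.48 and were not called.

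Serpine2 (ENSMUSG00000026249, chr1:79794197-79861180, minus strand) encodes protease nexin, a secreted inhibitor of thrombin, urokinase and plasmin that is found at neuromuscular synapses. It was the only member that fell. Its levels were 126, 151, 158 and 160 CPM in the controls and 102, 94.0, 92.5 and 88.4 CPM in Dnm2 +/K562E mice, so every mutant mouse was below every control. The mean went from 149 ± 15.5 to 94.2 ± 5.65 CPM (SD, n = 4), with a log2 fold change of -0.66 ± 0.08 (SE, adjusted p = 9.34e-05, edgeR). With scaling by library size alone the log2 fold change was -0.45 (adjusted p = 0.00226), which no longer reached the fold threshold.

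Serpinf1 (ENSMUSG00000000753, chr11:75409769-75422701, minus strand) encodes pigment epithelium-derived factor, a secreted serpin that does not inhibit proteases and is known to restrain vessel growth. It was at 190, 130, 145 and 217 CPM in the controls and 436, 378, 325 and 337 CPM in Dnm2 +/K562E mice. The lowest mutant mouse was well above the highest control. The mean went from 170 ± 40.3 to 369 ± 50.1 CPM (SD, n = 4), for a fitted log2 difference of 1.11 ± 0.16 (SE, adjusted p = 2.09e-04, edgeR). None of its 31-base stretches occurs in another gene.

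Serping1 (ENSMUSG00000023224, chr2:84765387-84775444, minus strand) encodes the inhibitor of the complement proteases C1r and C1s and of plasma kallikrein. Its levels were 122, 130, 140 and 207 CPM in controls and 268, 233, 224 and 212 CPM in Dnm2 +/K562E mice. Control mouse 4 came within reach of the lowest mutant mouse, and the groups only just separated. The mean went from 150 ± 39.1 to 234 ± 24.3 CPM (SD, n = 4), for a fitted log2 difference of 0.65 ± 0.15 (SE, adjusted p = 0.00539, edgeR). Without control 1 the log2 fold change was 0.55 and without mutant mouse 1 it was 0.575, both under the fold threshold of 0.58.

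The same mice tended to be the highest of their genotype. Control mouse 4 was the highest control for 6 of the 7 members, all but Serpinb1a, and Dnm2 +/K562E mouse 1 was the highest mutant mouse for 6 of the 7, all but Serpinb6a. Control 4 also had the highest control sum of fibroblast markers (1377 CPM, with 978 to 1035 in the other controls). The same held for macrophage markers (125 CPM, with 68.1 to 71.2 in the others). Mutant mouse 1 had the highest macrophage sum of its genotype (246 CPM). Its fibroblast sum of 2204 CPM was below the 2385 CPM of mutant mouse 2. A comparison chosen after seeing the data left out both control 4 and mutant mouse 1. The log2 fold changes were then 3.55 for Serpinb1a, 0.77 for Serpinb6a, 1.16 for Serpinf1, 0.77 for Serping1 and -0.67 for Serpine2. All 7 members had the same calls as in the 8 mice.

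Most markers of connective tissue and macrophages were higher, as were Serpinf1 and Serping1. Of 6 fibroblast markers 5 were called higher, against 12.9% of all tested genes. The other, Ly6a, was at 108 ± 8.04 CPM in controls and 94.8 ± 3.18 CPM in mutant mice (log2 fold change -0.19), and was not called. The groups overlapped for Ly6a and Pi16. The sum of the 6 was between 978 and 1377 CPM in controls and between 1839 and 2385 CPM in mutant mice. Dcn made up most of it, at 758 ± 137 and 1509 ± 163 CPM. All 6 macrophage markers were called higher, with sums from 68.1 to 125 CPM and from 146 to 246 CPM. The sum of 4 endothelial markers was between 838 and 884 CPM in controls and between 600 and 683 CPM in mutant mice, with 1 of 4, Kdr, called lower, a call lost with library size alone. No Schwann cell marker was called, and the sums were 158 to 178 CPM and 132 to 165 CPM. Mast cell sums, 11.4 to 42.1 and 6.97 to 28.6 CPM, overlapped. The liver and plasma markers stayed at or below 1.77 CPM in sum in every mouse, with Ttr and Fga at 0. Of 4 satellite cell markers 1, Chodl, was called higher and 3, Pax7, Myf5 and Calcr, lower. The part of these cells in the serpin differences was not tested.

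**Figure D2:**
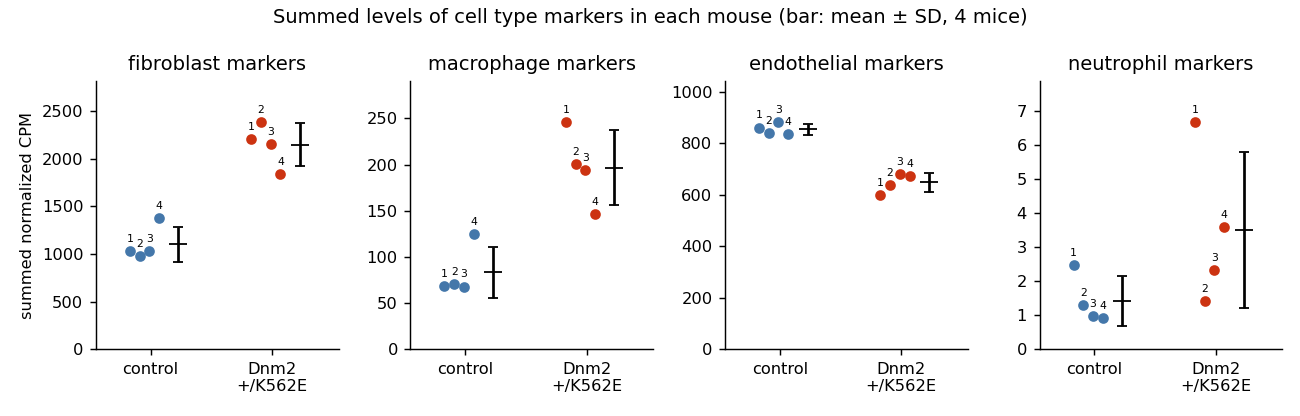
Summed normalized CPM (y axes, from 0) of fibroblast, macrophage, endothelial and neutrophil markers in each mouse, numbered, with the mean ± SD of 4 mice beside the points. Fibroblast and macrophage sums are higher in every Dnm2 +/K562E mouse, endothelial sums are lower, and neutrophil sums overlap and stay below 7 CPM.

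Levels of different genes are compared per kilobase of exon, with all annotated exons of a gene joined. In the controls Serpinf1 was the most abundant member at 72.3 ± 17.1 CPM per kb (SD, n = 4), followed by Serping1 at 64.4 ± 16.8, Serpinb6a at 34.4 ± 1.83 and Serpine2 at 18.0 ± 1.87. Serpina3n at 3.67 ± 2.22, Serpinb9 at 3.07 ± 0.263 and Serpinb1a at 2.99 ± 0.491 CPM per kb closed the order. Serpinf1 and Serping1 did not differ beyond their spread, nor did the last 3. In the Dnm2 +/K562E mice Serpinb1a moved up from the last place to above Serpine2, at 35.9 ± 4.70 CPM per kb, behind Serpinf1 at 156 ± 21.3, Serping1 at 101 ± 10.4 and Serpinb6a at 56.5 ± 2.17. Serpine2 at 11.4 ± 0.682, Serpina3n at 5.81 ± 3.50 and Serpinb9 at 2.96 ± 0.357 followed. Parts of this order rest on the length used. Per kb of the longest transcript, Serpinb6a was at 84.9 in controls and 139.6 in mutant mice, beside Serping1 at 84.7 and 132.6, Serpine2 was at 43.9 in controls, and Serpinb1a (3.59) was above Serpinb9 (3.09) in controls.

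**Figure D3:**
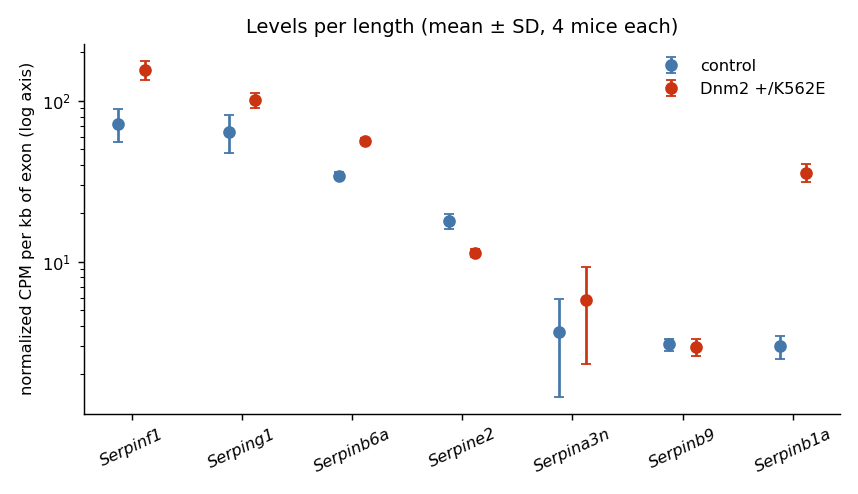
Normalized CPM per kb of exon (log axis) of the 7 serpins, as mean ± SD of 4 control (blue) and 4 Dnm2 +/K562E (red) mice, ordered by the control level. Serpinb1a is at 2.99 CPM per kb in controls, close to Serpinb9 and Serpina3n, and above Serpine2 in the mutant mice at 35.9, while Serpinf1 is highest in both.

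The summed level of all counted serpins was 294 CPM per kb in the controls and 503 CPM per kb in the mutant mice. The 7 members made up 67.5% of the control sum and 73.5% of the mutant sum. Serpinb1a went from 1.02% to 7.14% of the family sum, Serpinf1 from 24.6% to 31.1% and Serpine2 from 6.10% to 2.26%. Serpinb6a had 11.7% and 11.2%. Most of the remainder was Serpinh1, a collagen chaperone of the endoplasmic reticulum, with 28.8% and 21.7%. Per kb of the longest transcript, Serpinb1a went from 0.85% to 6.16%, Serpinf1 from 22.1% to 28.8% and Serpine2 from 10.4% to 3.97%, while Serpinb6a had 20.2% and 19.95%.

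Only 16 of the 61 serpin genes passed the filter, the 7 members and 9 others, while 21 had no count in any mouse and the other 24 had at most 58 counts over the 8 mice. Of the 16 tested, 7 were called higher and 2 lower, with a median log2 fold change of 0.56. Over all tested genes 12.9% were called higher and 7.85% lower, with a median of 0.01. The 7 include the 4 members above, and thus Serpinb1a, which was picked for its rise. Serpinb8 and Serpinb6c were called higher as well. Serpinb8, an intracellular serpin that inhibits furin, was at 3.43, 7.42, 5.20 and 6.89 CPM in controls and 14.1, 15.5, 18.5 and 13.9 CPM in mutant mice. Its log2 fold change was 1.44 (adjusted p = 2.33e-04, edgeR) and the groups did not overlap.

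Serpinb6c was near the filter, below 0.5 CPM in every control and between 0.757 and 0.815 CPM in the mutant mice. Its log2 fold change was 1.13 (adjusted p = 0.0164, edgeR). It had 13, 13, 21 and 6 counts in the controls and 30, 33, 34 and 28 in the mutant mice. With at least 10 counts required in every mouse, 6 serpins were called higher and Serpinb6c was not tested. Its call was lost with control 4 and mutant mouse 1 both left out (log2 fold change 0.89, adjusted p = 0.0682, edgeR). It shares 22.9% of its stretches with other genes, Serpinb6a included. Serpinh1 was at 149, 220, 223 and 234 CPM in controls and 303, 245, 240 and 279 CPM in mutant mice, and passed the p threshold but not the fold threshold (log2 fold change 0.37, adjusted p = 0.0437, edgeR). Serpini1, Serpind1 and Serpina3c had log2 fold changes of 0.47, 0.02 and -0.06 and were not called. Serpini1 was called higher without control 3 (log2 fold change 0.77, adjusted p = 0.0202, edgeR) and also with library size alone (log2 fold change 0.69, adjusted p = 0.0433). With that scaling Serpind1 was at 0.24 and Serpina3c turned to 0.14 on the log2 scale, neither called. Without a filter on low counts 4 more serpins were called higher, Serpina3i, Serpinb2, Serpinb7 and Serpinb9b. Serpinb7 had 0 to 3 counts per control and 4 to 18 per mutant mouse, and Serpinb9b 0 to 1 and 4 to 8.

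**Figure D4:**
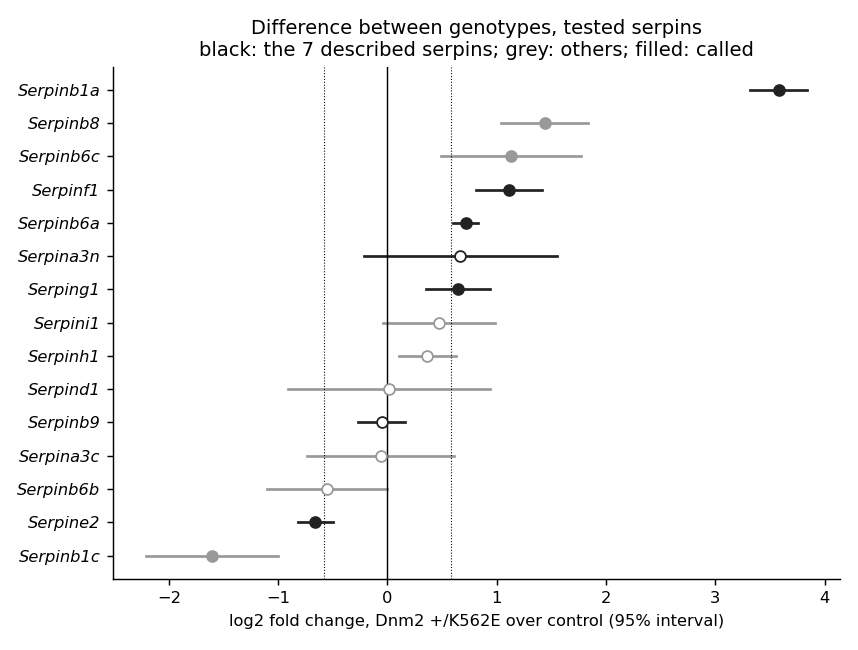
Log2 fold change (x axis, Dnm2 +/K562E over control) with its 95% interval for the tested serpins reported here, the 7 described members in black and the others in grey, filled where called, with dotted lines at the fold threshold of 0.58. Serpinb1a lies at 3.58, beyond every other serpin shown, and Serpinb1c, its neighbour on chromosome 13, is lowest at -1.61. Serpinb1a was picked on this comparison, so its interval and fill are a description and not a test.

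Serpins act on proteases, and 13 of the 22 protease genes counted passed the filter. Of these 3 were called higher, all of them cysteine cathepsins of the lysosome, and none was called lower. Shares over all tested genes were 12.9% and 7.85%. The median log2 fold change was 0.53, against 0.01 over all tested genes. Ctss, abundant in macrophages, went from 11.5 ± 4.16 to 36.3 ± 6.55 CPM (SD, n = 4), for a fitted log2 difference of 1.66 (adjusted p = 1.42e-04, edgeR). Ctsk went from 18.0 ± 3.15 to 37.6 ± 2.13 CPM, a log2 fold change of 1.06, and Ctsl from 139 ± 3.37 to 223 ± 18.3 CPM, a log2 fold change of 0.68. The targets of Serpine2 and Serping1 were not called. The log2 fold change was 0.51 for Plat (adjusted p = 0.00533), 0.53 for Plau (adjusted p = 0.0590), 0.577 for C1ra (adjusted p = 0.0191) and 0.573 for C1s1 (adjusted p = 0.00114, all edgeR). F2, which encodes thrombin, and Masp1, a complement protease, had log2 fold changes of 0.29 (adjusted p = 0.309) and -0.10 (adjusted p = 0.538, edgeR), and Plg, the plasmin precursor, had 0 counts in all mice. With library size alone 8 of the 13 were called higher, Plat, Plau, C1ra, C1s1 and Casp1 included. That scaling called 2865 of all 14001 tested genes higher, with a median log2 fold change of 0.22.

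In the classical complement pathway, where the Serping1 product inhibits C1r and C1s, RNA of the C1q subunits was higher as well. C1qa, C1qb and C1qc encode the recognition subunits and are made mainly by macrophages. They were the 3 of 8 tested complement genes called higher, and none was called lower. Of all tested genes 12.9% were called higher and 7.85% lower. The groups overlapped for C1qc, and C1ra and C1s1 were not called. With library size alone C1ra and C1s1 were called higher too, as were 2865 of all 14001 tested genes. C1qa went from 24.3 ± 8.44 to 55.7 ± 9.82 CPM (SD, n = 4), for a fitted log2 difference of 1.20 (adjusted p = 8.06e-04, edgeR), and C1qb and C1qc had log2 fold changes of 1.16 and 0.98. The downstream genes C2, C4b and C3 had log2 fold changes of -0.37, -0.30 and -0.90 and were not called. C3 was at 83.0 ± 55.7 CPM in controls and 44.5 ± 16.4 CPM in mutant mice (adjusted p = 0.0912).

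Of 10 receptors for serpins, their complexes and their proteases, 4 were called higher and 1 lower, with a median log2 fold change of -0.03. Lrp1, the receptor that clears serpin and protease complexes, went from 267 ± 42.3 to 501 ± 75.0 CPM (SD, n = 4), for a fitted log2 difference of 0.91 (adjusted p = 1.82e-04, edgeR). The protease-activated receptors F2r and F2rl1 had log2 fold changes of 0.94 and 1.90, and F2rl1 went from 3.60 ± 0.876 to 13.4 ± 2.35 CPM. For Plaur, the urokinase receptor, it was 0.69 (adjusted p = 0.0347) with overlapping groups. Thbd, the thrombin cofactor of endothelium, was the 1 called lower (log2 fold change -0.71, adjusted p = 0.0277, edgeR). Thbd was at 71.6 ± 21.3 and 43.9 ± 10.6 CPM with overlapping groups, and its call was lost with library size alone. Pnpla2, a lipase that binds the Serpinf1 product, was at 424 ± 90.1 and 321 ± 34.1 CPM and was not called (log2 fold change -0.40, adjusted p = 0.0295).

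**Figure D5:**
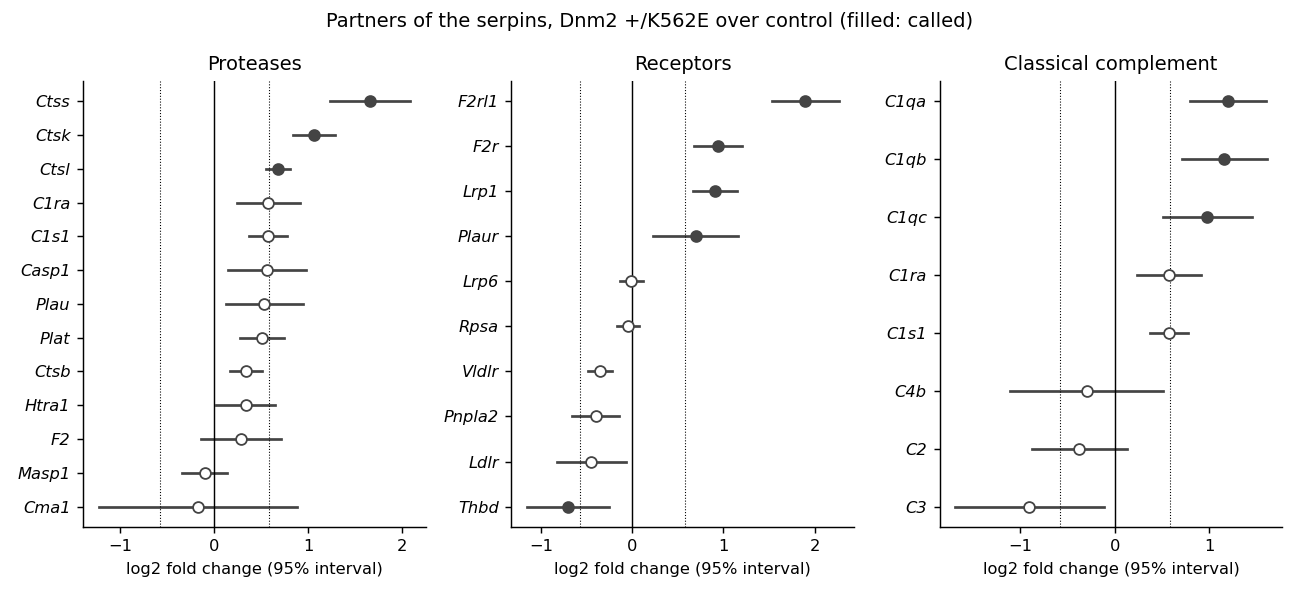
Log2 fold changes (x axes, Dnm2 +/K562E over control) with 95% intervals of the tested proteases, receptors and classical complement genes, filled where called, with dotted lines at the fold threshold of 0.58. The called proteases are Ctss, Ctsk and Ctsl, 4 receptors are called higher and Thbd lower, and the called complement genes are C1qa, C1qb and C1qc.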

How the data were processed

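RNA-seq of soleus muscle from 4 control and 4 Dnm2 +/K562E mice was analysed. The authors used Trimmomatic 0.33 to trim reads, STAR 2.5.1b to align them to GRCm38 (Ensembl gene models) and featureCounts to count them per gene. They deposited raw counts per gene and mouse, without normalization. Alignments of low mapping quality were dropped. The options allowed multi-mapping reads at their primary alignment, and how many of them passed the quality limit is not stated. A read over several genes was counted for each, so overlapping genes affect each other. The effect of reads shared between copies was not tested. Strand use is not stated. The labels name a stranded total RNA kit and the methods poly A libraries.

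Of 22880 gene IDs, 22647 were matched to GENCODE M21 (GRCm38). Counts were filtered with filterByExpr (minimum count 10, minimum total 15), scaled by TMM and fitted with the quasi-likelihood F-test of edgeR 4.0.16 in R 4.3.3, with Benjamini-Hochberg adjustment over 14001 genes. Calls needed an adjusted p under 0.05 and an absolute log2 fold change of 0.58 or more. Standard errors are those implied by the F statistic. The fit was tested on simulated data. Depth was 33407430 to 48832814 counts per mouse. Alternatives were edgeR's exact test, DESeq2 1.42.0, other scalings, filters and thresholds, a replicate block and leaving out each mouse.

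The members and lists were chosen with earlier results of these data known. Text names the members, the other tested serpins (1 is not reported here), listed genes and the 5 genes nearest to Serpinb1a in profile. Low-count serpins, neighbours of Serpinb1a and genes overlapping Serpinb6a fall outside this rule and were chosen after their values were seen. The listed genes Klkb1 and Cebpd were not analysed here. Mouse numbers in titles and descriptions are not stated to mark litters or batches, and deviations from group means of same-numbered mice correlated at -0.21 to 0.01 (titles) and -0.17 to 0.18 (descriptions), so mice were not paired.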

Additional observations from a re-analysis of the deposited data

Results flagged for a closer look

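Of 32 groups of 4 mice tested, the serpins' levels in each genotype, 1 held a mouse far from the others. Serpinh1, the collagen chaperone, was at 149.4 CPM in control 1 and at 220, 223 and 234 CPM in the other controls. Chance alone gives about 1 such group in 20. In the mutant mice Serpinh1 lay between 240 and 303 CPM.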

How the results depend on the processing

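Of 136 alternative values for the log2 fold changes of the 7 serpins and Dnm2, 130 kept direction and side of the threshold. With library size alone Serpinb9 turned to 0.16 and Serpine2 fell under the fold threshold at -0.45, and without Dnm2 +/K562E replicate 3 Serpinb9 turned to 0.0254. Leaving out 1 mouse at a time gave 3.49 to 3.66 for Serpinb1a, 0.69 to 0.75 for Serpinb6a, -0.11 to 0.0254 for Serpinb9, 0.17 to 1.14 for Serpina3n (called without control 4), -0.74 to -0.63 for Serpine2, 1.00 to 1.24 for Serpinf1, 0.55 to 0.84 for Serping1 (under the fold threshold without control 1 or mutant mouse 1) and 0.09 to 0.17 for Dnm2. The cause of these shifts was not tested beyond the removal of each mouse.

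Library size alone gave 2865 higher and 564 lower genes, and dropping the fold threshold 3103 and 3036, against 1806 and 1099. Higher serpins numbered 11 with DESeq2 and 11 without a filter on low counts, where more low genes are tested, against 7. Lower serpins numbered 1 with library size alone, against 2. The replicate block gave 1637 higher and 1036 lower genes with title numbers and 1739 and 1083 with description numbers, and changed no serpin call. Serpins of a few counts per mouse, such as Serpinb1b, are not resolved at this depth.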
